A study of Mus musculus with 20 samples.

Results

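The 8 genes described here encode NFAT transcription factors, subunits of the phosphatase calcineurin and a calcineurin regulator: Nfatc1, Nfatc2, Nfatc3, Nfat5, Ppp3ca, Ppp3cb, Ppp3r1 and Rcan1. They were chosen by symbol among 50686 genes of the deposited count table, and all 8 passed the filter on low counts that left 16042 genes. The cells were RAW264.7, a mouse line of monocyte and macrophage origin whose cells turn into osteoclasts when given the cytokine RANKL, and their RNA was sequenced; the labels give the source of the samples as bone marrow but the cell line as RAW264.7. The groups were untreated cells at hour 0, and cells given RANKL (50 ng/ml), I-BET (500 nM), which inhibits BET bromodomain proteins, or both, for 4, 14 or 24 hours. Each of these 10 groups held 2 libraries, and nothing in the labels says that they came from separate cultures, so p-values measure only the spread between these samples. All groups come from 1 line without engineered alleles named in the labels. By their titles the untreated cells exist at hour 0 only, so treatment and time in culture cannot be told apart in comparisons with them. The sample names of the untreated libraries begin with a 4, as do those of the 4-hour groups. The labels do not say what that 4 means.

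Calcineurin is a phosphatase that calcium and calmodulin switch on. It strips phosphates from NFAT proteins, which then move into the nucleus, whereas NFAT kinases return them to the cytoplasm. In osteoclast precursors NFATc1 is known as the master regulator of the osteoclast programme and as an activator of its own gene. I-BET displaces BET proteins from acetylated chromatin. The study asked what I-BET does to RANKL-driven differentiation. The localisation of NFAT proteins and the activity of calcineurin were not measured here, only RNA.

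Total counts per library ran from 19051780 to 62313792, and each of the 8 genes held between 992 and 78250 counts in every library. The 7 macrophage and monocyte markers in the table were above 0 in every library, with Cd68 and Csf1r at no less than 234 and 230 RPKM. Itgam went down to 1.58 RPKM and Fcgr3 to 0.493 RPKM, the latter no higher than some markers of other cells. Adgre1 was also looked for but had no entry under that symbol. The 23 markers of T cells, B cells, osteoblasts and fibroblasts, endothelium, epithelium, erythroid cells and neutrophils reached at most 0.641 RPKM, and 7 of them were at 0 in every library. In untreated library 2 the 5 most abundant genes took 11.4% of the counts, against 3.54% to 6.09% in the other 19 libraries. Its part in the results was not tested beyond leaving that library out. Levels are given as RPKM (reads scaled to gene length and library size), library 1 first. Differences between groups are on the log2 scale, with the standard error (SE) of edgeR's quasi-likelihood fit, and a gene is said to have risen or fallen where the Benjamini-Hochberg adjusted p over all 16042 genes is under 0.05. A second fit added the library number as a block, because libraries of the same number deviated together, and its value is given where it changed a call.

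**Figure D1:**
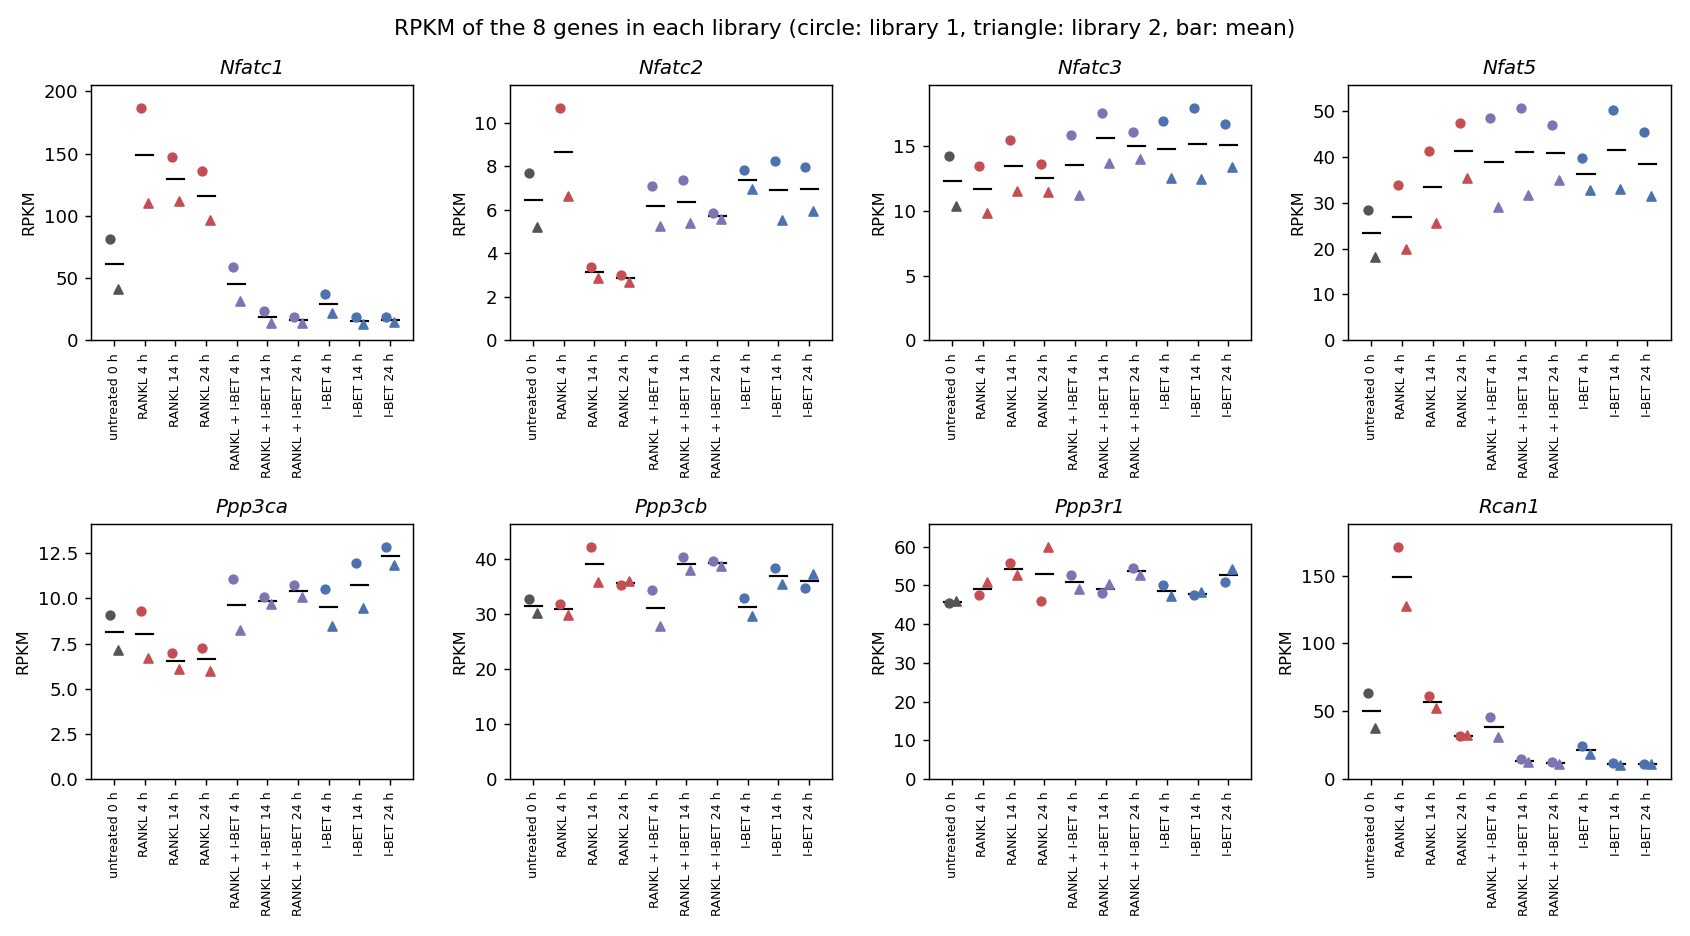
RPKM (y axes, from 0) of the 8 genes in the 2 libraries of each of the 10 groups (x axis), with the group mean as a bar. Nfatc1 and Rcan1 have their highest values in RANKL cells at 4 hours and their lowest in the groups with I-BET at 14 and 24 hours, whereas Ppp3r1 stays between 45.6 and 60.0 RPKM.

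The first question was which of the 8 genes differ from untreated cells under each treatment. With RANKL, at 4 hours 1 was called, which rose (3.91% of all tested genes were called in either direction), at 14 hours 2, of which 1 rose and 1 fell (18.4%), and at 24 hours 2, which fell (18.9%). With I-BET alone 1 was called at 4 hours, which fell (10.5%), 2 at 14 hours, which fell (13.7%), and 3 at 24 hours, of which 1 rose and 2 fell (17.7%). When I-BET was added to RANKL, 2 were called at 4 hours, which fell (11.4%), and 4 at both 14 hours (22.1%) and 24 hours (26.8%), of which 2 rose and 2 fell each time. With the library number as a block more were called, against a larger background. For RANKL these were 3 of 8 at 4 hours, 6 at 14 hours and 5 at 24 hours (14.5%, 36.3% and 36.8% of all genes), for I-BET alone 3, 5 and 5 (29%, 29.8% and 36.2%), and for added I-BET 5 at each hour (28.1%, 40.2% and 46.6%). Without the block the shares called were 1 in 8 at the lowest and 4 in 8 at the highest, and with so few genes a share near the background is not a result about them. The median change of the 8 genes lay between -0.01 and 0.22 in these 9 comparisons, and that of all tested genes between -0.05 and 0.05. The comparisons with RANKL and those of I-BET alone share the untreated libraries, and the comparisons of added I-BET share the RANKL libraries.

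**Figure D2:**
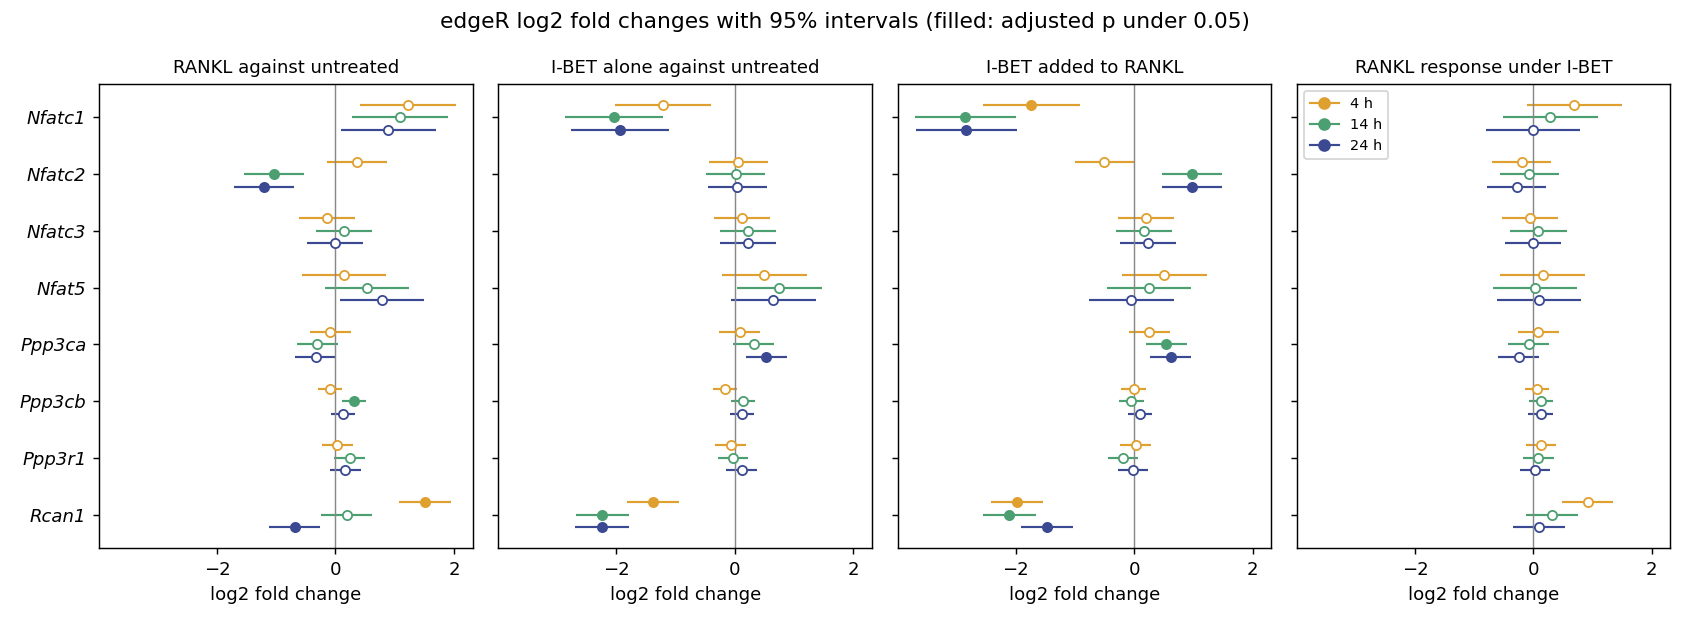
Log2 fold changes (x axes) with 95% intervals of the 8 genes at 4, 14 and 24 hours in 4 kinds of comparison. Filled points passed an adjusted p of 0.05, and Nfatc1 and Rcan1 have the largest changes, all 6 of their filled points for I-BET added to RANKL lying to the left of 0.

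Nfatc1 (ENSMUSG00000033016; mm10, chromosome 18, 80606205 to 80713071, minus strand) was the NFAT gene with the highest level in untreated cells, at 81.8 and 41.4 RPKM. With RANKL it stood at 187 and 111 RPKM at 4 hours, at 147 and 112 at 14 hours and at 136 and 96.5 at 24 hours. Every RANKL library thus lay above both untreated libraries, and the 2 untreated libraries differed 1.97-fold from each other. The changes of 1.22 (SE 0.38, adjusted p = 0.0971), 1.1 (SE 0.38, adjusted p = 0.0589) and 0.89 (SE 0.37, adjusted p = 0.122) did not pass the edgeR test. Without the filter on low counts edgeR called all 3 (adjusted p = 2.79e-15, 6.45e-13 and 4.64e-08). With the replicate block all 3 passed, at 1.23 (adjusted p = 3.03e-06), 1.14 (adjusted p = 1.56e-06) and 0.93 (adjusted p = 1.4e-05), and DESeq2 called those at 4 hours (adjusted p = 0.0203) and 14 hours (adjusted p = 0.0225). Without untreated library 1 the change at 14 hours also passed, at 1.56 (adjusted p = 0.0457). Within the RANKL course no difference passed, with -0.12 (adjusted p = 0.867) from 4 to 14 hours and -0.20 (adjusted p = 0.868) from 14 to 24 hours.

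I-BET went with lower Nfatc1 whether RANKL was present or not. With I-BET alone the gene held 36.8 and 21.6 RPKM at 4 hours, 18.6 and 12.8 at 14 hours and 18.7 and 14.7 at 24 hours. All 6 libraries lay below both untreated ones. The gene fell by 2.04 at 14 hours (SE 0.39, adjusted p = 0.00276) and fell by 1.94 at 24 hours (SE 0.38, adjusted p = 0.00283), while -1.20 at 4 hours (adjusted p = 0.0582) passed with the block (adjusted p = 3.23e-06) and with DESeq2 (adjusted p = 0.0106). In cells that received RANKL and I-BET together the values were 59.0 and 31.5 RPKM at 4 hours, 23.2 and 14.2 at 14 hours and 19.1 and 14.2 at 24 hours. Against RANKL alone the changes were -1.73 (SE 0.38, adjusted p = 0.00946), -2.85 (SE 0.40, adjusted p = 0.000168) and -2.83 (SE 0.40, adjusted p = 0.000119), and the libraries of the 2 groups did not overlap at any hour. The call at 4 hours was lost without RANKL library 1 (-1.35, adjusted p = 0.0853), without RANKL plus I-BET library 2 (-1.37, adjusted p = 0.102) and in a fit of these libraries alone (adjusted p = 0.0777).

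Between cells with I-BET and cells with both agents no difference in Nfatc1 passed edgeR's test, the values being 0.69 (95% interval -0.11 to 1.49) at 4 hours, 0.29 (-0.52 to 1.09) at 14 hours and -0.01 (-0.81 to 0.80) at 24 hours. The block called the first of these (0.68, adjusted p = 0.00387). The test of the difference itself, the interaction between RANKL and I-BET, gave -0.53 (adjusted p = 1), -0.81 (adjusted p = 0.664) and -0.90 (adjusted p = 0.431) at 4, 14 and 24 hours. With the block the last 2 passed, at -0.87 (adjusted p = 0.00264) and -0.94 (adjusted p = 0.00105). This interaction compares RANKL under I-BET, between groups of the same hour, with RANKL against untreated cells at hour 0. Time in culture thus enters only the second part and cannot be told apart from an interaction. The fall with added I-BET was larger at 24 than at 4 hours by 1.1, which did not pass (adjusted p = 0.283) but did with the block (-1.08, adjusted p = 0.000227).

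**Figure D3:**
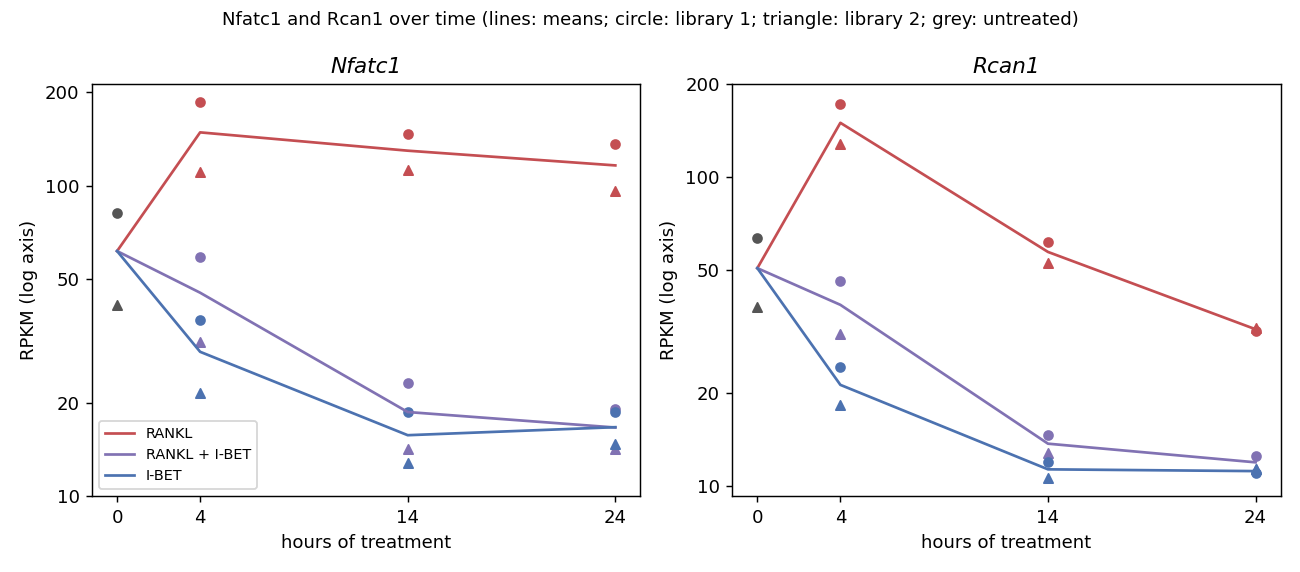
RPKM (log axis) of Nfatc1 and Rcan1 against hours of treatment, with both libraries of each group as points and lines through the group means. The mean of Nfatc1 with RANKL goes from 149 RPKM at 4 hours to 116 at 24 hours, and that of Rcan1 from 149 to 32.1, below the untreated mean of 50.6.

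Ordered by mean RPKM, Nfatc1 ran from RANKL at 4, 14 and 24 hours through untreated cells to both agents at 4 hours, I-BET at 4 hours and the 4 groups with I-BET at 14 and 24 hours. Neighbours in this order overlapped in every step except that from RANKL at 24 hours to untreated cells. The 9.45-fold range of group means, from 149 to 15.7 RPKM, was second to that of Rcan1 among the 8 genes.

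Nfatc2 (ENSMUSG00000027544; chromosome 2, 168476410 to 168601657, minus strand), a family member activated by calcineurin as NFATc1 is, was lower after 14 and 24 hours of RANKL. It held 7.69 and 5.19 RPKM in untreated cells and 10.7 and 6.62 after 4 hours of RANKL. At 14 hours it stood at 3.38 and 2.86 RPKM and at 24 hours at 3.01 and 2.68, below both untreated libraries. It fell by 1.03 at 14 hours (SE 0.24, adjusted p = 0.00722) and by 1.21 at 24 hours (SE 0.24, adjusted p = 0.00246). The value at 4 hours was 0.37 (adjusted p = 0.563), which the block called (0.35, adjusted p = 0.0367). From 4 to 14 hours of RANKL the gene fell by 1.40 (SE 0.24, adjusted p = 0.0011). The fall at 14 hours against untreated cells was lost without untreated library 1 (-0.82, adjusted p = 0.0725) and without RANKL library 2 (-0.96, adjusted p = 0.0624).

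With I-BET present Nfatc2 was not in the low range of RANKL cells. Cells with both agents held 7.10 and 5.26 RPKM at 4 hours, 7.38 and 5.37 at 14 hours and 5.85 and 5.59 at 24 hours. Cells with I-BET alone held 7.82 and 6.93, 8.24 and 5.55, and 7.96 and 5.92 RPKM at these hours. The ranges of both sets overlapped that of untreated cells. Against RANKL alone, added I-BET gave -0.50 at 4 hours (adjusted p = 0.219, with the block -0.49, adjusted p = 0.00216), and the gene rose by 0.98 at 14 hours (SE 0.23, adjusted p = 0.00786) and by 0.97 at 24 hours (SE 0.23, adjusted p = 0.00667). The difference between the effects at 24 and 4 hours was 1.47 (SE 0.33, adjusted p = 0.014), and Nfatc2 was the single gene of the 8 called there (7.28% of all genes were called). The rise at 14 hours was lost without RANKL library 2 (0.92, adjusted p = 0.0575) or without library 1 of both agents (0.77, adjusted p = 0.0804). The interaction between RANKL and I-BET, at 0.96 (adjusted p = 0.183) at 14 hours and 0.93 (adjusted p = 0.144) at 24 hours, passed only with the block and in the fit without a filter on low counts among the fits to all 20 libraries (block adjusted p = 0.000366 and 0.000288).

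Nfatc3 (ENSMUSG00000031902; chromosome 8, 106059603 to 106130537, plus strand), the third calcineurin-dependent factor, changed in none of the 18 comparisons. Its level ran from 9.86 to 17.9 RPKM, and in untreated cells it was 14.2 and 10.4. The largest difference against untreated cells was 0.23 (95% interval -0.25 to 0.70), with I-BET alone at 24 hours. Library 1 held more than library 2 in all 10 groups, by a median of 1.35-fold. With this number as a block 4 differences passed: I-BET alone at 14 hours (0.21, adjusted p = 0.0337) and 24 hours (0.22, adjusted p = 0.0209), added I-BET at 24 hours (0.23, adjusted p = 0.0117) and RANKL at 14 against 4 hours (0.28, adjusted p = 0.00441). Exons of Nfatc3 overlap the gene Esrp2 on the opposite strand, and whether the counting used strand is not stated, so reads of the pair may be mixed.

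Nfat5 (ENSMUSG00000003847; chromosome 8, 107293470 to 107379517, plus strand) encodes the factor of the osmotic stress response, which lacks the calcineurin docking of the others. It held 28.4 and 18.2 RPKM in untreated cells, and 33.7 and 19.9, 41.3 and 25.6, and 47.3 and 35.3 RPKM at 4, 14 and 24 hours of RANKL. With I-BET alone it held 39.7 and 32.9, 50.2 and 32.9, and 45.3 and 31.4 RPKM, and with both agents 48.4 and 29.1, 50.6 and 31.6, and 46.9 and 34.9 RPKM. Library 1 was above library 2 in all 10 groups, by a median of 1.54-fold, and all libraries with I-BET lay above both untreated ones. No comparison passed edgeR's test with the filter on low counts, although 2 were under 0.05 unadjusted. The nearest was 0.79 with 24 hours of RANKL (95% interval 0.07 to 1.5, adjusted p = 0.124). Without that filter edgeR called Nfat5 higher under RANKL at 14 hours (adjusted p = 0.00228) and 24 hours (1.9e-06). That fit also called I-BET alone at 4, 14 and 24 hours (0.0104, 2.51e-06 and 4.29e-05), added I-BET at 4 hours (0.00819) and the interaction at 24 hours (0.02). With the block Nfat5 was called higher under RANKL at 14 hours (0.51, adjusted p = 9.58e-05) and 24 hours (0.80, adjusted p = 3.87e-07). It was also called under I-BET alone at 4 hours (0.52, adjusted p = 0.000191), 14 hours (0.74, adjusted p = 1.73e-06) and 24 hours (0.65, adjusted p = 6.68e-06). Added I-BET gave 0.51 at 4 hours (adjusted p = 0.000166) and 0.25 at 14 hours (adjusted p = 0.0288) in that fit, and the interactions at 14 and 24 hours were -0.50 (adjusted p = 0.011) and -0.69 (adjusted p = 0.000415). The block also called the RANKL course from 4 to 14 hours (0.39, adjusted p = 0.00134) and from 14 to 24 hours (0.28, adjusted p = 0.0323), and the difference between the effects of I-BET at 24 and 4 hours (-0.56, adjusted p = 0.00252).

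Levels per length let the 4 NFAT genes be set side by side, with 1 fixed length per gene. That length was 7.43 kb for Nfatc1 and 18.4 kb for Nfat5, which have 7 and 14 annotated transcripts. Shares between genes, here and for calcineurin below, thus depend on which transcripts were present, and that was not tested. Nfatc1 made up 55.1% to 61.9% of their summed RPKM in untreated cells and 66.1% to 76.3% in RANKL cells. In cells with both agents it made up 45.2% and 40.9% at 4 hours and 20.7% to 23.5% later, and with I-BET alone 19.6% to 36.3% over all hours. Nfat5 made up 21.5% to 24.3% in untreated cells, 13.6% to 24.2% with RANKL, 37.1% to 53.4% with both agents and 39.2% to 52.8% with I-BET alone. Nfatc1 was the highest of the 4 in 10 of 20 libraries, namely all of the untreated and RANKL libraries and both libraries of both agents at 4 hours. Nfat5 was the highest in the other 10, all with I-BET. The sum of the 4 averaged 104 RPKM in untreated cells, 196, 180 and 173 RPKM at 4, 14 and 24 hours of RANKL, and 104, 81.8 and 78.3 RPKM with both agents. Nfatc4, the remaining NFAT gene, had 0 to 22 counts per library.

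**Figure D4:**
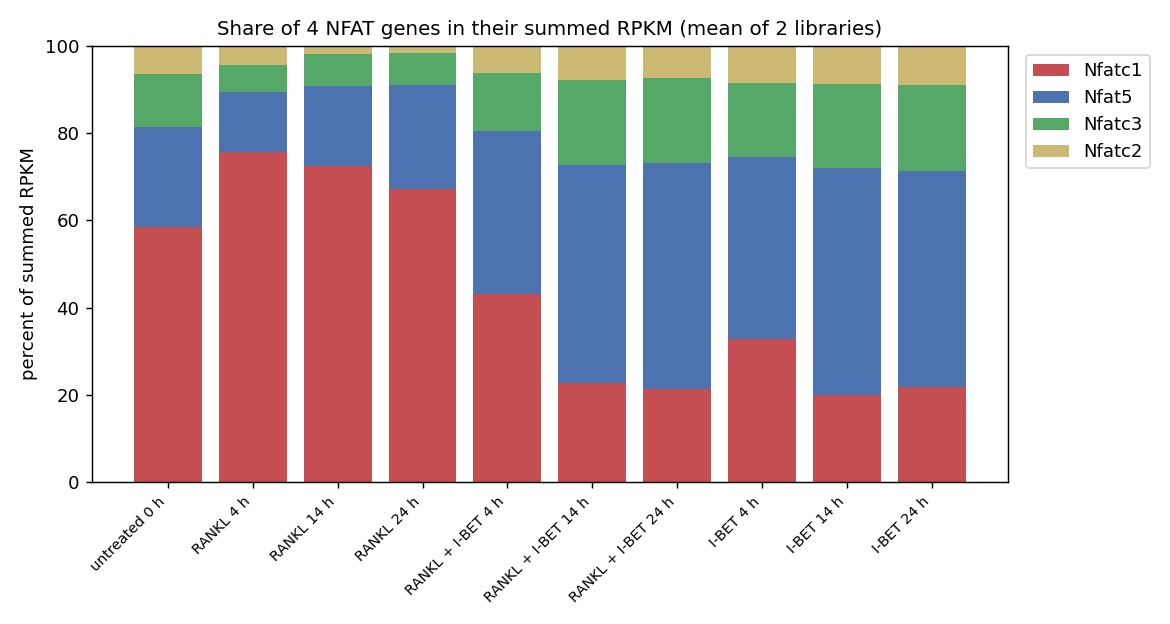
Share (percent) of each of the 4 NFAT genes in their summed RPKM, as the mean of 2 libraries in each of the 10 groups. The Nfatc1 part is 75.8% with 4 hours of RANKL and 21.2% with both agents at 24 hours, where the Nfat5 part is 52.1%.

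Calcineurin pairs a catalytic subunit, from Ppp3ca, Ppp3cb or Ppp3cc, with a regulatory subunit that binds calcium, from Ppp3r1. Ppp3ca (ENSMUSG00000028161; chromosome 3, 136670124 to 136937727, plus strand) encodes the alpha catalytic subunit and, of the 3 subunit genes among the 8, was the one called in comparisons with I-BET. It held 9.09 and 7.13 RPKM in untreated cells. With RANKL it held 9.32 and 6.68, 7.0 and 6.07, and 7.26 and 6.01 RPKM at 4, 14 and 24 hours, and with both agents 11.1 and 8.25, 10.1 and 9.66, and 10.7 and 10.1 RPKM. At 14 and 24 hours the 2 sets did not overlap. With added I-BET the gene rose by 0.55 at 14 hours (SE 0.16, adjusted p = 0.0254) and by 0.62 at 24 hours (SE 0.16, adjusted p = 0.011). It held 12.8 and 11.9 RPKM with I-BET alone at 24 hours and rose there by 0.54 against untreated cells (SE 0.16, adjusted p = 0.0348). Leaving out any of the 4 libraries concerned ended the call for I-BET alone (adjusted p = 0.0726 to 0.207) and for added I-BET at 14 hours (0.0527 to 0.121). The call at 24 hours was lost without RANKL library 2 (adjusted p = 0.076) or without library 1 of both agents (adjusted p = 0.0564). RANKL gave -0.31 at 14 hours (adjusted p = 0.238) and -0.33 at 24 hours (adjusted p = 0.189), both called with the block (adjusted p = 0.00858 and 0.00469). The block also called I-BET alone at 14 hours (0.31, adjusted p = 0.00861), added I-BET at 4 hours (0.25, adjusted p = 0.0299) and the difference between its effects at 24 and 4 hours (0.37, adjusted p = 0.0333).

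Ppp3cb (ENSMUSG00000021816; chromosome 14, 20499364 to 20546573, minus strand), which encodes the beta catalytic subunit, stayed within 27.9 to 42.3 RPKM. It held 32.8 and 30.2 RPKM in untreated cells, 31.9 and 29.9 after 4 hours of RANKL and 42.3 and 35.9 after 14 hours. The RANKL libraries at 14 hours lay above those of the other 2 groups. The gene rose by 0.31 against untreated cells (SE 0.10, adjusted p = 0.0373) and by 0.41 from 4 to 14 hours (SE 0.10, adjusted p = 0.00928). The first call ended without any 1 of its 4 libraries (adjusted p = 0.0533 to 0.286), with RLE size factors (adjusted p = 0.0572), without the filter, with a CPM filter, on RPKM values and with these libraries alone. The second ended without RANKL library 1 or 2 at 4 hours or library 1 at 14 hours (adjusted p = 0.0603 to 0.0986) and with these libraries alone (adjusted p = 0.15). With added I-BET the largest difference was 0.10 (95% interval -0.10 to 0.31), at 24 hours, and none passed. Among the 3 catalytic genes, Ppp3cb made up 56.8% to 74.8% of the summed RPKM, Ppp3ca 12.2% to 21.8% and Ppp3cc 12.7% to 26.4%. Exons of Ppp3cb overlap the antisense gene 1810062O18Rik. Ppp3cc, which is not among the 8 and is given because its values were seen to move, held 6.59 and 6.10 RPKM after 24 hours of RANKL and 11.7 and 9.64 RPKM with both agents. With added I-BET it rose by 0.55 at 14 hours (SE 0.10, adjusted p = 0.0018) and by 0.72 at 24 hours (SE 0.11, adjusted p = 0.00017).

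Ppp3r1 (ENSMUSG00000033953; chromosome 11, 17159263 to 17200375, plus strand) had the narrowest range of group means among the 8 genes, 1.18-fold, and passed in none of the comparisons by the test used. Untreated cells held 45.6 and 46.0 RPKM, RANKL cells 47.6 and 50.8, 55.9 and 52.6, and 46.1 and 60.0 RPKM, and cells with both agents 52.7 and 49.0, 48.1 and 50.3, and 54.6 and 52.7 RPKM. The 95% interval of added I-BET at 24 hours ran from -0.28 to 0.24. The difference of 0.24 between RANKL at 14 hours and untreated cells passed with the block (adjusted p = 0.0415), and that at 24 hours passed without RANKL library 1 (0.36, adjusted p = 0.0488). Ppp3r2, the other gene for a regulatory subunit, had 0 counts in every library. An exon of Ppp3r1 overlaps Wdr92 on the same strand, so its counts are uncertain.

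Rcan1 (ENSMUSG00000022951; chromosome 16, 92391953 to 92466146, minus strand) encodes a protein that binds and restrains calcineurin. One of its transcripts is known to start within the gene and to be induced by NFAT, which makes it a common readout of calcineurin signalling. The 250 bases before each of 2 start regions given by RefSeq are shown to set them apart, read from GRCm38.p6. Of 7 annotated transcripts of Rcan1, 2 start within 100 bases of the end of each window, and others start elsewhere. Both strands were searched for GGAAA, the core that NFAT binds (TTTCC on the other strand), for the AP-1 site TGANTCA and for the E-box CACGTG, and capitals mark the matches, which do not overlap. The first window, at chr16:92466170-92466419 on the minus strand, lies before the long transcripts and held 1 CACGTG only.

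Rcan1 window 1: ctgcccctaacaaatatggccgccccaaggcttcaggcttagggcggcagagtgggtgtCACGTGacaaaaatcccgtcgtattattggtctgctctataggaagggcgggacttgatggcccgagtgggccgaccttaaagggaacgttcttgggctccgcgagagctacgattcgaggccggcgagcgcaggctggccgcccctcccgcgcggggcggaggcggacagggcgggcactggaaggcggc

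The second, at chr16:92400079-92400328 on the minus strand, lies before short transcripts and within an intron of the long ones. It held 3 matches to GGAAA and 1 to TGANTCA.

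Rcan1 window 2: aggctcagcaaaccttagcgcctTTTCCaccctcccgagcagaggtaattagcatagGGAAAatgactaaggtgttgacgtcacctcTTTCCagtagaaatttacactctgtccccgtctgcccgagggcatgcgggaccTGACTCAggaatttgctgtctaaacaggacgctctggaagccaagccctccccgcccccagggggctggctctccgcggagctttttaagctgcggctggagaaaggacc

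Of 32851 windows of this length before RefSeq starts, 55.6% held GGAAA at least once and 6.39% at least 3 times, 6.75% held TGANTCA, 6.02% held CACGTG, and 0.457% held 3 GGAAA together with TGANTCA. The first windows of Nfatc2 and Ppp3cb also held 3 GGAAA. A match is a description of the letters and not a site, the motifs were chosen with the windows in view, and counts per gene cannot separate the 2 starts. In all, 6 of the 8 genes have 9 windows; Ppp3ca had no match and Nfatc1 was not used.

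Rcan1 rose early under RANKL and was below its starting level at 24 hours. It held 63.3 and 37.8 RPKM in untreated cells, 171 and 127 after 4 hours of RANKL, 61.6 and 52.6 after 14 hours and 31.7 and 32.4 after 24 hours. The libraries at 4 hours lay above and those at 24 hours below both untreated ones, and those at 14 hours lay within their range. The gene rose by 1.51 at 4 hours (SE 0.20, adjusted p = 0.00071) and fell by 0.68 at 24 hours (SE 0.20, adjusted p = 0.0282), and 14 hours gave 0.19 (adjusted p = 0.601). In the RANKL course it fell by 1.32 from 4 to 14 hours (SE 0.20, adjusted p = 0.000515) and by 0.87 from 14 to 24 hours (SE 0.20, adjusted p = 0.0315). Among the 8 genes 3 were called in the first of these steps (17.7% of all genes) and 1 in the second (2.9%). The call at 24 hours against untreated cells rested on single libraries: it was lost without untreated library 1 (-0.37, adjusted p = 0.309), without either RANKL library (adjusted p = 0.079 and 0.135) and on RPKM plus 1 (adjusted p = 0.0842). The second step was lost without any 1 of its 4 libraries (adjusted p = 0.0906 to 0.156), and the rise at 4 hours in a fit of these libraries alone (adjusted p = 0.0639).

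Rcan1 was lower with I-BET at every hour. With I-BET alone it held 24.2 and 18.2 RPKM at 4 hours, 12 and 10.6 at 14 hours and 11 and 11.3 at 24 hours. The changes were -1.39 (SE 0.20, adjusted p = 0.0009), -2.23 (SE 0.21, adjusted p = 1.15e-05) and -2.24 (SE 0.21, adjusted p = 6.74e-06) against untreated cells, and all 6 libraries lay below both untreated ones. With both agents it held 45.9 and 31.0, 14.6 and 12.7, and 12.5 and 11.3 RPKM. Against RANKL alone the changes were -1.98 (SE 0.21, adjusted p = 5.64e-05), -2.11 (SE 0.21, adjusted p = 8.87e-06) and -1.46 (SE 0.20, adjusted p = 0.000114), with libraries apart at every hour. None of these 6 calls was lost on leaving out a library. Exons of Rcan1 overlap the antisense gene Gm46555. Of its relatives, Rcan2 had 3 counts in all and Rcan3 held 7.91 to 12.1 RPKM.

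In the presence of I-BET the response to RANKL, cells with both agents against cells with I-BET, passed edgeR's test in 0 of 24 pairs of gene and hour (0.517%, 0.904% and 0.262% of all genes were called at 4, 14 and 24 hours), and 1 had an unadjusted p under 0.05. That pair was Rcan1 at 4 hours, at 0.92 (SE 0.20, adjusted p = 0.0758), which the block (0.92, adjusted p = 0.00176) and DESeq2 (adjusted p = 0.00377) called, and limma on RPKM called 0. The values of Rcan1 at 14 and 24 hours were 0.32 (adjusted p = 0.785) and 0.09. The interaction between RANKL and I-BET called 0 of 24 pairs by edgeR with the filter, DESeq2 and limma (0%, 2.78% and 5.25% of all genes by edgeR), and 3 pairs had an unadjusted p under 0.05, Nfatc2 at 14 and 24 hours and Rcan1 at 24 hours. Without the filter on low counts edgeR called 6 pairs, namely Nfatc1 and Nfatc2 at 14 and 24 hours and Nfat5 and Rcan1 at 24 hours. The share of all genes called in that fit was not counted. For Rcan1 at 24 hours the interaction was 0.78 (adjusted p = 0.159), called with the block (0.75, adjusted p = 0.0185). For every gene the interaction rests on the untreated cells of hour 0, so time in culture is part of it. With the block, 3.07%, 6.58% and 2.95% of all genes were called for RANKL under I-BET at 4, 14 and 24 hours, 1.22%, 11.7% and 18.3% for the interaction, 38.7% and 16.9% for the steps of the RANKL course and 21.9% for the effect of I-BET at 24 against 4 hours.

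Across the 20 libraries the log2 levels of Nfatc1 and Rcan1 went together (Pearson r = 0.91), as did those of Nfatc3 and Nfat5 (r = 0.83), and Nfatc1 and Ppp3ca ran opposite (r = -0.72). These are descriptions over libraries that share groups, library numbers and untreated cells. Of 9442 genes compared, the 5 with the pattern most like Nfatc1 were Sept9 (r = 0.977), Ocstamp (0.976), Ptpn22 (0.974), Myc (0.971) and Dph5 (0.969), where Ocstamp encodes a membrane protein of osteoclast fusion and Myc a transcription factor of growth. Those most like Rcan1 were Mdm2 (r = 0.979), which encodes the ligase that removes p53, Sdc1 (0.970), Slfn10-ps (0.965), Serpinb9 (0.962) and Capn2 (0.960). The library number moved with these levels too. Nfatc1, Nfatc2, Nfatc3, Nfat5 and Ppp3ca were each higher in library 1 in all 10 groups. So were 16.3% of 10500 genes with a mean of at least 1 RPKM and counts in every library. The median ratio of library 1 to library 2 was 1.35 for Nfatc3 and 1.54 for Nfat5. Their group means ranged 1.34-fold and 1.78-fold, so the r of this pair does not separate library number from treatment.

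The other genes of the pathway are described at 24 hours by their counts, first for RANKL against untreated cells and then for I-BET added to RANKL, beside medians of 0.05 and -0.05 over all tested genes, of which 18.9% and 26.8% were called. Most of these lists hold so few genes that a share near those is no result about the list. Of 15 tested genes for ITAM receptors, adaptors and phospholipase C gamma, which lead to the calcium signal, 1 rose and 5 fell under RANKL (median -0.12), and 5 rose and 6 fell with added I-BET (median 0.17). Lcp2, an adaptor, rose by 0.67 under RANKL (adjusted p = 0.0139), and Trem2, a receptor that signals through an ITAM adaptor, fell by 2.60 (adjusted p = 1.14e-05). With added I-BET the ITAM adaptor Fcer1g rose by 0.98 (adjusted p = 1.94e-05), and the osteoclast receptor Oscar fell by 2.85 (adjusted p = 0.0163), on 6 counts against 35. Lcp2 was lost without untreated library 2 (adjusted p = 0.188) or RANKL library 1 (0.0695), and Oscar without RANKL library 1 (0.145) or either library of both agents (0.0887 and 0.109).

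Calcium channels, stores and pumps numbered 17, of which 2 rose and 6 fell under RANKL (median -0.34), and 4 rose and 2 fell with added I-BET (median 0.13). Orai1, the pore of store-operated calcium entry, fell by 1.1 under RANKL (adjusted p = 0.0116) and rose by 1.70 with added I-BET (adjusted p = 0.000355). Ryr1, a calcium release channel, rose by 0.51 (adjusted p = 0.0227) and fell by 1.60 (adjusted p = 2.92e-06). The 8 calls under RANKL became 2 without untreated library 1, 5 without untreated library 2, 5 without RANKL library 1 and 4 without RANKL library 2. The calls of Orai1 and Ryr1 under RANKL were both lost without untreated library 1 (adjusted p = 0.0562 and 0.109) or untreated library 2 (0.0504 and 0.137), Orai1 also without RANKL library 1 (0.0969) and Ryr1 without RANKL library 2 (0.122).

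Among 14 tested genes for calmodulin, further calcineurin subunits and calcineurin regulators, 2 rose and 3 fell under RANKL (median -0.06), and 3 rose and 2 fell with added I-BET (median 0.08). Cabin1, an inhibitor of calcineurin, rose by 0.53 under RANKL (adjusted p = 0.00505). Camk1, a kinase that calmodulin activates, fell by 1.60 under RANKL (adjusted p = 0.000963) and rose by 1.58 with added I-BET (adjusted p = 0.000709), and Camk4, a kinase of the same kind, fell by 1.33 with added I-BET (adjusted p = 0.0455). Under RANKL the 5 calls became 2 without untreated library 2 and 3 without either RANKL library. With added I-BET the 5 became 2 without RANKL library 1 and 3 without either library of both agents, and 8 with the block. Cabin1 was lost without untreated library 2 (adjusted p = 0.0784) or RANKL library 1 (0.0658), and Camk4 without any 1 of its 4 libraries (0.0665 to 0.206).

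Of 15 NFAT kinases, export factors and further NFAT partners, 2 rose and 2 fell under RANKL (median 0.09), and 2 rose and 3 fell with added I-BET (median -0.08). Dyrk2, which phosphorylates NFAT, rose by 0.67 (adjusted p = 0.00703), and Csnk1e, a casein kinase, fell by 0.63 under RANKL (adjusted p = 0.0168). With added I-BET Mapk14, the p38 alpha kinase, rose by 0.91 (adjusted p = 6.29e-06), and Homer3, which competes with calcineurin for NFAT, fell by 1.32 (adjusted p = 5.55e-05). The 4 calls under RANKL became 1 without untreated library 2 or RANKL library 1, which ended the calls of Dyrk2 (adjusted p = 0.067 and 0.097) and Csnk1e (0.121 and 0.163). The 5 with added I-BET became 3 without RANKL library 1 or library 2 of both agents, and 8 with the block.

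Of 15 partners and repressors of NFATc1 in osteoclasts, 3 rose and 4 fell under RANKL (median 0.13), and 3 rose and 6 fell with added I-BET (median -0.49). Prdm1, the repressor Blimp-1, rose by 4.56 under RANKL (adjusted p = 9.92e-05) and fell by 7.08 with added I-BET (adjusted p = 5.72e-06), on 10 counts against 1085. Of 11 tested textbook targets of NFATc1, 7 rose under RANKL (median 1.82) and 8 fell with added I-BET (median -3.39). Mmp9, a collagen-degrading protease, rose by 7.96 (adjusted p = 2.25e-06) from 6 counts in untreated cells to 2166, and fell by 8.08 with added I-BET (adjusted p = 9.87e-07) to 10 counts. Of 6 osmotic stress targets of NFAT5, 3 rose under RANKL (median 1.1) and 1 fell with added I-BET (median -0.19, 3 called without RANKL library 1). Slc6a12, a betaine carrier, rose by 1.28 (adjusted p = 0.0353) under RANKL, and Slc5a3, an inositol carrier, fell by 0.80 with added I-BET (adjusted p = 0.000654). Slc6a12 was lost without untreated library 1 (adjusted p = 0.227), untreated library 2 (0.0821) or RANKL library 2 (0.204).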

How the data were processed

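The authors deposited read counts per gene and RPKM values of 20 libraries. Dividing a gene's count by its length and by the library's total gives these RPKM. Per the submitters' processing notes, FastQC, STAR 2.5.3a, DESeq2 1.16.1 and the builds GRCm38 and mm10 were used; the counting tool and its strand setting are not stated there.

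The tests used edgeR 4.0.16 (R 4.3.3) on the counts, with TMM factors, filterByExpr, 1 mean for each group, all 20 libraries in 1 robust quasi-likelihood fit (10 residual degrees of freedom), and Benjamini-Hochberg adjustment over 16042 genes in each of 18 comparisons. They were tested on simulated data.

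Libraries with the same number deviated together from their group means in all 45 pairs of groups (correlations of 0.221 to 0.596, median 0.454), so blocked values are given; the labels name no batch. The biological coefficient of variation was 0.162, and 0.0751 with the block. Alternatives were RLE size factors, no filter, a stricter filter (CPM of 1 or more in 4 or more libraries), no robust estimation, DESeq2 1.42.0, fits restricted to each comparison's own libraries, limma 3.58.1 on log2 of RPKM plus 1 or 0.1 (for genes reaching RPKM 1 in 2 libraries), and each library left out. The block without untreated library 2 was added after seeing the data.

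All 8 genes are named in every kind of comparison. In lists of other genes, the rule named the called gene with the largest rise and that with the largest fall for RANKL and for added I-BET at each hour; values at 24 hours are printed, except for 1 gene that is not reported here. Oscar stands in 2 lists. The genes and lists were chosen with earlier results of these data known. Likeness was Pearson's r of log2 CPM (prior count 2), for genes averaging 5 CPM or more. Figures were drawn with matplotlib 3.10.9.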

Additional observations from a re-analysis of the deposited data

Results flagged for a closer look

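The effect of I-BET on RANKL cells differed between hours for Nfatc2. Added I-BET gave -0.50 at 4 hours and 0.97 at 24 hours, and the test of the difference gave 1.47 (SE 0.33, edgeR adjusted p = 0.014). Leaving out a library gave adjusted p = 0.0634 without RANKL library 1 at 4 hours (1.163) and 0.0574 without library 2 of both agents at 4 hours (1.30), and its other 6 libraries left the call in place.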

How the results depend on the processing

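No called change of the 8 genes reversed under any alternative. Over the pairs of gene and comparison the replicate block called 14 for RANKL against untreated cells (5 without it), 13 for I-BET alone (6), 15 for added I-BET (10), 2 for RANKL under I-BET (0), 7 for the interaction (0), 7 for the RANKL course (4) and 4 for the effect of I-BET at 24 against 4 hours (1). With the block and without untreated library 2 these were 11, 11, 15, 2, 7, 7 and 5. Without the filter they were 9, 10, 12, 2, 6, 4 and 2. DESeq2 gave 1 for RANKL under I-BET. With only the libraries of a comparison, 2 were called for RANKL and 2 for its course, and RPKM plus 1 or 0.1 gave 3 for RANKL. Leaving out 1 library gave 3 to 5 for RANKL, 5 to 6 for I-BET alone, 8 to 10 for added I-BET, 0 to 1 for RANKL under I-BET, 0 to 0 for the interaction, 2 to 3 for the course and 0 to 1 for the hours. The share of all genes called was counted only for the main fit and the block on all 20 libraries. A count that moved under the other settings is thus no result about the 8 genes alone. Where a library was left out, the lone one of that group took its spread from the rest. Of 1440 values under the other settings 1286 kept direction and side of the threshold, 15 lost the call and 92 gained it. The remaining 47, all uncalled, changed sign. With 1 library left out, 99 of 704 values, all uncalled, changed sign. RPKM plus 1 moved the median of all genes by up to 0.109. The causes were not tested.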
